A study of Mus musculus with 16 samples.

Results

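The C/EBP transcription factors were followed in mouse macrophages that had, or lacked, the microRNA miR-155 and were exposed to lipopolysaccharide (LPS), the outer-membrane component of Gram-negative bacteria that is sensed through Tlr4. The genes Cebpa, Cebpb, Cebpd, Cebpg and Ddit3 were taken by their names in the array annotation, which gave 5 of 17658 tested genes and 9 of 41077 probes. Macrophages were grown from the bone marrow of male C57BL/6Jax mice with 10 ng/mL M-CSF, which makes marrow precursors become macrophages, over 9 days. Cells of miR-155 knockout mice (KO) were taken at 0 h, that is without LPS, and after 6, 12 and 24 h of 100 ng/mL LPS, and so were cells of wild-type mice (WT). Total RNA of each of the 8 groups was hybridised to 2 single-colour Agilent arrays, 16 in all. The labels give no other allele or agent in either genotype and do not say whether the 2 samples of a group came from separate animals or cultures, so p-values measure only the spread between these samples. The array has 0 probes named for the miR-155 gene or its host gene, so its signals give no check of the deletion.

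C/EBP proteins are basic leucine zipper (bZIP) factors: a basic region reads the DNA and a helix with regularly spaced leucines joins such proteins into dimers. C/EBPα drives the formation of granulocytes and macrophages and slows the cell cycle, while C/EBPβ and C/EBPδ take over in inflammation and switch on cytokine and acute-phase genes together with NF-κB. C/EBPγ and CHOP, the product of Ddit3, act mostly through dimers with other bZIP proteins, and CHOP is best known from the response to protein folding stress and amino acid shortage. miR-155 is made from an RNA that macrophages induce on LPS, it lowers messages that pair with its seed, and Cebpb is a reported target.

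The mature miR-155-5p sequence and the stretch of the Cebpb probe that pairs with it are shown because they connect Cebpb with the deleted microRNA. Capitals mark the seed (bases 2 to 8 of the microRNA) and its complement in the Cebpb message.
miR-155-5p: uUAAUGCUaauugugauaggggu
Cebpb site: ttccgtttcgAGCATTAaagtgaagaca
The microRNA sequence is that of RefSeq on GRCm38.p6, chr16:84714143-84714165, plus strand. The Cebpb stretch is part of probe A_52_P63553, which the array file places at chr2:167515847-167515905 on mm9. The base after the match is A, and the same probe holds the polyadenylation signal AATAAA. Of all 41077 probes 174 held the seed match (0.424%), and of the 9 C/EBP probes 1 did.

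Probes over the zipper region show what the family shares. Capitals mark leucine codons in the reading frame without a stop codon that holds most of them.
Cebpa probe: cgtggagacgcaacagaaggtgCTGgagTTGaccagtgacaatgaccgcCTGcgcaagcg
Cebpb probe: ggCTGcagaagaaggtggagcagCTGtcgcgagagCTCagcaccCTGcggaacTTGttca
Cebpg probe: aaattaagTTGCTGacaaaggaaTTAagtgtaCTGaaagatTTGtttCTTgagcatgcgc
Leucine took 3 of 19 codons in the Cebpa probe (A_51_P214087, chr7:35905361-35905420 on mm9), 5 of 19 in the Cebpb probe (A_52_P605846, chr2:167515309-167515368) and 6 of 19 in the Cebpg probe (A_52_P438082, chr7:35835477-35835536, minus strand). Probes of different C/EBP genes matched at no more than 30 of 60 bases, and their longest shared run was 10 bases.

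The promoters of Cebpb and Cebpa are shown because these genes moved in opposite directions under LPS. Each covers 250 bases before the transcription start in RefSeq, GRCm38.p6. In the Cebpb promoter (chr2:167688665-167688914) capitals mark TGACG or its complement, the core of sites for CREB and ATF factors. In the Cebpa promoter (chr7:35119043-35119292) they mark TTGCG, part of a C/EBP site.
Cebpb promoter: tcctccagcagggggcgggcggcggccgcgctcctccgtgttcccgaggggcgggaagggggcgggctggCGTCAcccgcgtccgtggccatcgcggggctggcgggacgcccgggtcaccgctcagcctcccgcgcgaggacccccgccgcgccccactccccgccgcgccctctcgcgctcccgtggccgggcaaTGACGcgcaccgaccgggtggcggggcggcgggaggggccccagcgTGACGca
Cebpa promoter: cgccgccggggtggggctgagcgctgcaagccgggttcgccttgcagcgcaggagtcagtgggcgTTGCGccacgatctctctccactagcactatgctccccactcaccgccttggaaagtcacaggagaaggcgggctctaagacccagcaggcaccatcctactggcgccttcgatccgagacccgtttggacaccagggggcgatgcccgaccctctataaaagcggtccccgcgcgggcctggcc
On both strands, TGACG matched 3 times in the Cebpb window and 0 times in that of Cebpa, and 17.8% of 32851 promoter windows of this length held it. TTGCG matched once (1) in the Cebpa window and 0 times in that of Cebpb, and 14.5% of windows held it. The fuller C/EBP motif TTGCNNAA had 0 matches in the windows of all 4 genes in the table and was in 9.56% of windows. The TATA motif TATAAA was in the Cebpa window (1 match) and in 12.4% of windows. The table lists 4 of the 5 genes. A match of letters is a description and no evidence of binding.

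Across the arrays the 75th percentile of probe signal lay between 270.8 and 729.9 scanner units, and the scanner software placed 56.0% to 67.6% of probes well above background. All 10 macrophage markers on the list (Csf1r, Adgre1, Cd68 and others) were well above background on 16 of 16 arrays. Replicates 1 and 2 were read in 2 scan sessions of 2 slides each, and every group has 1 array in each session. Arrays of the same number deviated together from their group means, so each result is given with and without the replicate number as a term in the fit where that changes the call. Markers of neutrophils and their precursors stood apart by replicate: their summed level, in multiples of the array's upper quartile, was 10.1 to 50.6 in replicate 1 and 0.769 to 4.46 in replicate 2, higher in replicate 1 in 8 of 8 groups. The brightest of them at 0 h were S100a9 and S100a8 (median log2 over the upper quartile 3.08 and 1.08), with Mpo at -2.41. Summed macrophage markers were also higher in replicate 1 in 8 of 8 groups (2250 to 3780, against 1100 to 2970). So were those of B lymphocytes and of T and NK lymphocytes. Of 11 neutrophil and precursor markers on the array 5 were well above background on all arrays, among them S100a8, S100a9 and Mpo. Of the other granule genes of precursors Ctsg was so on 13 arrays, Prtn3 on 6 and Elane on 0 of 16. In bulk RNA, fewer cells of a type and less RNA per cell cannot be told apart.

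LPS moved the family in both directions. At 6 h Cebpb and Cebpd rose and Cebpa and Cebpg fell in both genotypes, and Ddit3 passed the test in neither. Markers of dendritic cells moved at the same time: 5 of 7 tested rose at 6 h in each genotype. Of all genes 12.3% rose at 6 h in KO cells and 12.6% in WT cells. The summed level of the dendritic cell markers was 8.71 to 17.8 at 6 h and 0.215 to 0.632 at 0 h in KO cells. In WT cells it was 9.92 to 14.9 at 6 h and 0.468 to 0.738 at 0 h. At 0 h Ccr7 and Ccl22, markers of mature dendritic cells, and Siglech were well above background on 0 of 4 arrays. Flt3 and Ccl17 were so on 3 of these arrays, and Zbtb46, Fscn1 and Xcr1 on all 4. In bulk RNA, more cells of this type and more RNA of these genes in other cells cannot be told apart. The part of dendritic cells in the C/EBP levels was not tested. Values below are log2 of the probe's signal over the array's 75th percentile, for the brightest probe of each gene, with replicate 1 before replicate 2. They rank the groups of a gene and do not compare one gene with another. Values after ± are standard errors of limma's moderated fit, and adjusted p-values are Benjamini-Hochberg over all genes, with a threshold of 0.05.

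**Figure D1:**
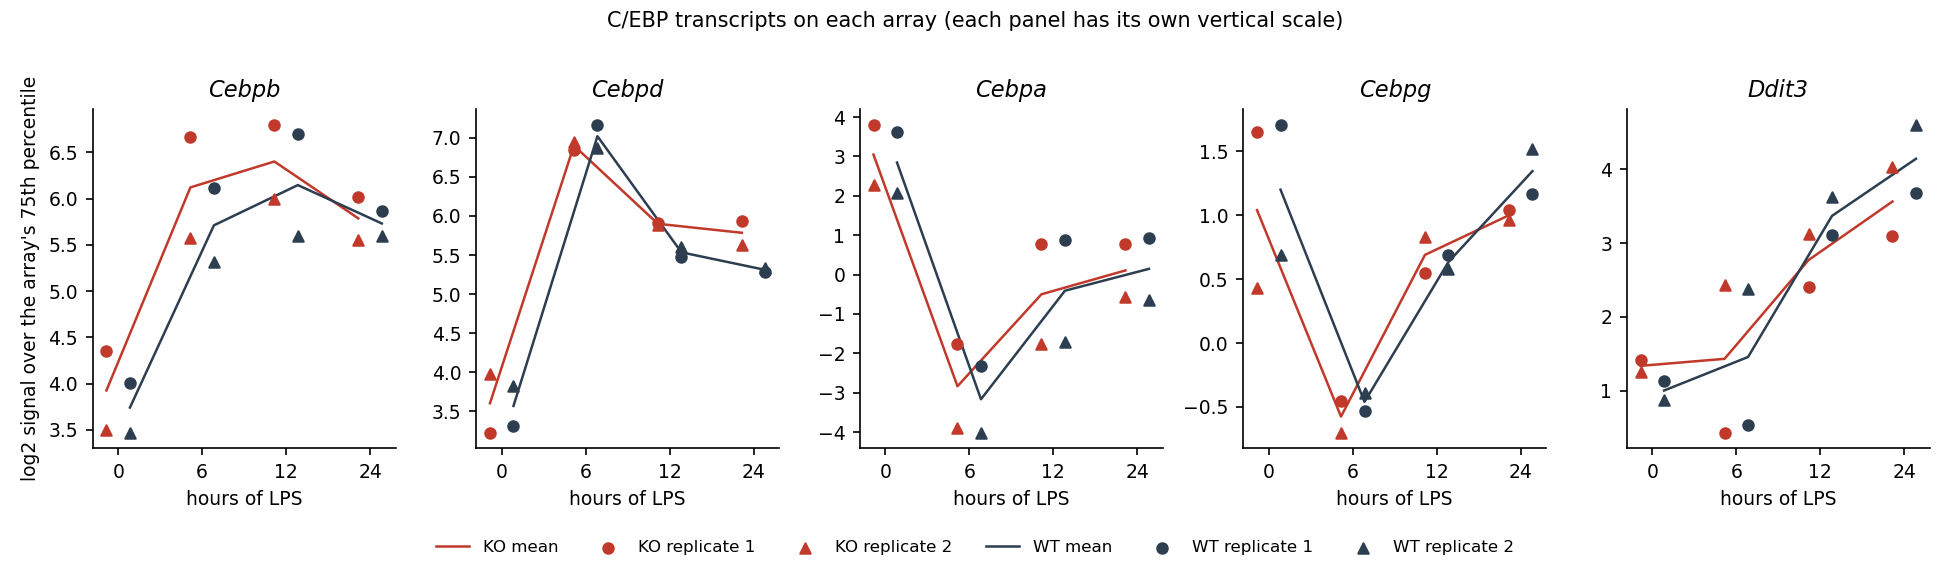
Log2 signal over the array's 75th percentile for each C/EBP gene (vertical axis, own scale per panel) against hours of LPS (horizontal axis), KO and WT side by side. Circles are replicate 1, triangles replicate 2, and lines join the means of 2 arrays. Cebpd lies above 5 on all 12 LPS arrays and below 4 on all 4 arrays at 0 h, and Cebpa falls lowest at 6 h.

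Cebpb, the activator of inflammatory genes with the miR-155 match, was 4.35 and 3.50 at 0 h, 6.67 and 5.57 at 6 h, 6.80 and 6.00 at 12 h and 6.02 and 5.55 at 24 h in KO cells. In WT cells it was 4.01 and 3.47, 6.11 and 5.31, 6.70 and 5.59, and 5.86 and 5.60 at the same times. Every LPS array lay above all arrays at 0 h, and replicate 1 lay above replicate 2 in 8 of 8 groups. At 6 h Cebpb rose by 2.19 ± 0.53 in KO cells (4.57-fold, adjusted p = 0.0122, limma) and by 1.97 ± 0.53 in WT cells (3.91-fold, adjusted p = 0.0208). At 12 h the rise was 2.47 in KO cells (5.54-fold, adjusted p = 0.00896) and 2.41 in WT cells (5.30-fold, adjusted p = 0.0104). At 24 h the difference was 1.86 in KO cells (adjusted p = 0.0543, and 0.000419 with the replicate number) and 1.98 in WT cells (adjusted p = 0.0387). The 24 h level differed from that at 6 h by -0.33 in KO cells (adjusted p = 0.757) and by 0.02 in WT cells (adjusted p = 0.988), and the arrays overlapped. In the fit on groups alone each of these calls was lost when 1 of a few arrays was left out. Those arrays were KO 6 h replicate 1 (0.0966) or KO 0 h replicate 2 (0.0946) for KO at 6 h, and WT 6 h replicate 1 (0.138) or WT 0 h replicate 2 (0.127) for WT at 6 h. At 12 h they were KO 12 h replicate 1 (0.0642) or KO 0 h replicate 2 (0.0789) in KO cells, and WT 12 h replicate 1 (0.0758) or WT 0 h replicate 2 (0.0816) in WT cells. The WT call at 24 h was lost without any of the 4 arrays compared (up to 0.222). With the replicate number no single array ended any of the Cebpb calls against 0 h, where the highest adjusted p was 0.00695.

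Cebpd, the acute-phase partner of C/EBPβ (probe A_51_P444447, chr16:15888459-15888518 on mm9), had a standard error of 0.30 in the fit on groups alone. In KO cells it was 3.23 and 3.98 at 0 h, 6.85 and 6.95 at 6 h, 5.91 and 5.89 at 12 h and 5.94 and 5.63 at 24 h. In WT cells it was 3.31 and 3.83, 7.17 and 6.87, 5.47 and 5.60, and 5.28 and 5.34. The highest level of the course was at 6 h in both genotypes, and no array at 6 h overlapped those of another time. Cebpd rose at 6 h by 3.30 ± 0.30 in KO cells (9.82-fold, adjusted p = 4.52e-05) and by 3.45 ± 0.30 in WT cells (10.9-fold, adjusted p = 3.54e-05). It was still above 0 h at 12 h, by 2.29 in KO cells (adjusted p = 0.000549) and 1.96 in WT cells (adjusted p = 0.00138), and at 24 h, by 2.18 in KO cells (4.54-fold, adjusted p = 0.00121) and 1.74 in WT cells (3.34-fold, adjusted p = 0.00436). Between 6 and 24 h it fell by 1.11 in KO cells (adjusted p = 0.0363) and by 1.71 in WT cells (adjusted p = 0.00640). Calls against 0 h held with any 1 array left out, at adjusted p up to 0.0398. The fall after 6 h did not: in KO cells 10 of 16 such fits lost it (adjusted p up to 0.159, and up to 0.0858 with the replicate number), and in WT cells it was lost without WT 24 h replicate 1 (0.0529) or WT 6 h replicate 1 (0.0563).

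Cebpa, which sets the myeloid programme, ran the other way (probe A_52_P168567, chr7:35906517-35906576 on mm9). In KO cells it was 3.81 and 2.28 at 0 h, -1.77 and -3.90 at 6 h, 0.77 and -1.77 at 12 h and 0.78 and -0.57 at 24 h. In WT cells it was 3.61 and 2.08, -2.32 and -4.01, 0.88 and -1.70, and 0.94 and -0.65. As scanner signal, the KO arrays read 89.4 and 26.0 units at 6 h and 4960 and 3330 at 0 h, and the WT arrays 53.9 and 30.3 at 6 h and 5850 and 3070 at 0 h. Replicate 2 lay below replicate 1 in 8 of 8 groups, by 1.35 to 2.58, yet no array with LPS overlapped those at 0 h. The summed neutrophil and precursor markers, higher in the same replicate, were 1.98 to 24.4 at 6 h and 4.46 to 32.5 at 0 h in KO cells, and 1.69 to 44.6 at 6 h and 3.59 to 50.6 at 0 h in WT cells, and their part in the Cebpa levels was not tested.

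The fall of Cebpa at 6 h was -5.88 ± 1.21 in KO cells (58.9-fold lower, adjusted p = 0.00525) and -6.01 ± 1.21 in WT cells (64.5-fold lower, adjusted p = 0.00479). Within replicate 1 and replicate 2 the difference was -5.58 and -6.18 in KO cells and -5.93 and -6.09 in WT cells. With the replicate number in the fit the standard error was 0.33. At 12 h the difference from 0 h was -3.55 in KO cells (adjusted p = 0.0677, and 3.76e-05 with the replicate number) and -3.26 in WT cells (0.0907, and 6.16e-05). At 24 h it was -2.94 in KO cells (0.182, and 2.0e-04 with the replicate number) and -2.70 in WT cells (0.208, and 0.000318). The level at 24 h stood above that at 6 h by 2.94 in KO cells (0.148, and 0.000242 with the replicate number) and by 3.31 in WT cells (0.118, and 1.9e-04).

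Cebpg, a partner that is present in most tissues and dampens or redirects other C/EBP proteins, was low at 6 h and passed against 0 h at no later time. In KO cells it was 1.65 and 0.43 at 0 h, -0.45 and -0.70 at 6 h, 0.55 and 0.83 at 12 h and 1.04 and 0.96 at 24 h. In WT cells it was 1.71 and 0.69, -0.53 and -0.39, 0.69 and 0.58, and 1.17 and 1.52. The 6 h arrays lay below all others in both genotypes, while those at 24 h overlapped those at 0 h. Cebpg fell at 6 h by 1.61 ± 0.42 in KO cells (3.06-fold, adjusted p = 0.0169) and by 1.66 ± 0.42 in WT cells (3.17-fold, adjusted p = 0.0147). At 12 h the difference from 0 h was -0.35 in KO cells (adjusted p = 0.640) and -0.57 in WT cells (0.409), and at 24 h it was -0.04 in KO cells (0.982) and 0.14 in WT cells (0.901). From 6 to 24 h Cebpg rose by 1.57 in KO cells (2.97-fold, adjusted p = 0.0346) and by 1.80 in WT cells (3.49-fold, adjusted p = 0.0228). The KO call at 6 h was lost without KO 0 h replicate 1 (adjusted p = 0.125, and 0.0583 with the replicate number), KO 6 h replicate 1 (0.0515) or KO 6 h replicate 2 (0.0923). The WT call at 6 h was lost without WT 0 h replicate 1 (0.118, and 0.0535 with the replicate number), WT 6 h replicate 1 (0.0748, and 0.0503) or WT 6 h replicate 2 (0.0596). Leaving out any of the 4 arrays compared also ended the rise from 6 to 24 h in each genotype (adjusted p up to 0.148 in KO cells and 0.120 in WT cells), and in KO cells so did leaving out either WT 6 h array (0.0505). It was also lost with the replicate number, without 3 arrays in KO cells (0.0549 to 0.0649) and without 2 in WT cells (0.058 and 0.0601).

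Ddit3, which encodes the stress factor CHOP (probe A_52_P533146, which spans chr10:126732518-126732821 on mm9), was the late gene of the family. In KO cells it was 1.42 and 1.25 at 0 h, 0.43 and 2.43 at 6 h, 2.41 and 3.13 at 12 h and 3.10 and 4.03 at 24 h. In WT cells it was 1.13 and 0.87, 0.53 and 2.38, 3.11 and 3.63, and 3.68 and 4.61. The 12 and 24 h arrays lay above those at 0 h in both genotypes. At 6 h replicate 1 was below its 0 h array by 0.99 in KO cells and 0.60 in WT cells, and replicate 2 was above it by 1.18 in KO cells and 1.51 in WT cells. At 24 h the difference from 0 h was 2.23 ± 0.73 in KO cells (4.69-fold, adjusted p = 0.0867, and 0.0121 with the replicate number), and Ddit3 rose by 3.14 ± 0.73 in WT cells (8.83-fold, adjusted p = 0.0193). At 12 h the difference was 1.44 in KO cells (adjusted p = 0.209, and 0.0516 with the replicate number), and the WT rise was 2.37 (5.16-fold, adjusted p = 0.0449). At 6 h it was 0.10 in KO cells (0.951) and 0.46 in WT cells (0.704). From 6 to 24 h the difference was 2.13 in KO cells (0.0828, and 0.0117 with the replicate number, where it missed the threshold without KO 6 h replicate 1 (0.113), KO 24 h replicate 1 (0.0542) or KO 24 h replicate 2 (0.0608)), and the WT level rose by 2.69 (adjusted p = 0.0415, up to 0.262 with 1 array left out, where 11 of 16 fits lost the call). The WT call at 12 h was lost when any of 12 of the 16 arrays was left out (adjusted p up to 0.214), and with the replicate number only without WT 0 h replicate 2 (0.0635). The WT call at 24 h was lost without WT 0 h replicate 1 (0.0695), WT 0 h replicate 2 (0.119) or WT 24 h replicate 2 (0.162), and with the replicate number it held without any 1 array (adjusted p up to 0.0241). With the replicate number the KO difference at 24 h missed the threshold without 2 of the 16 arrays (0.111 at most).

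**Figure D2:**
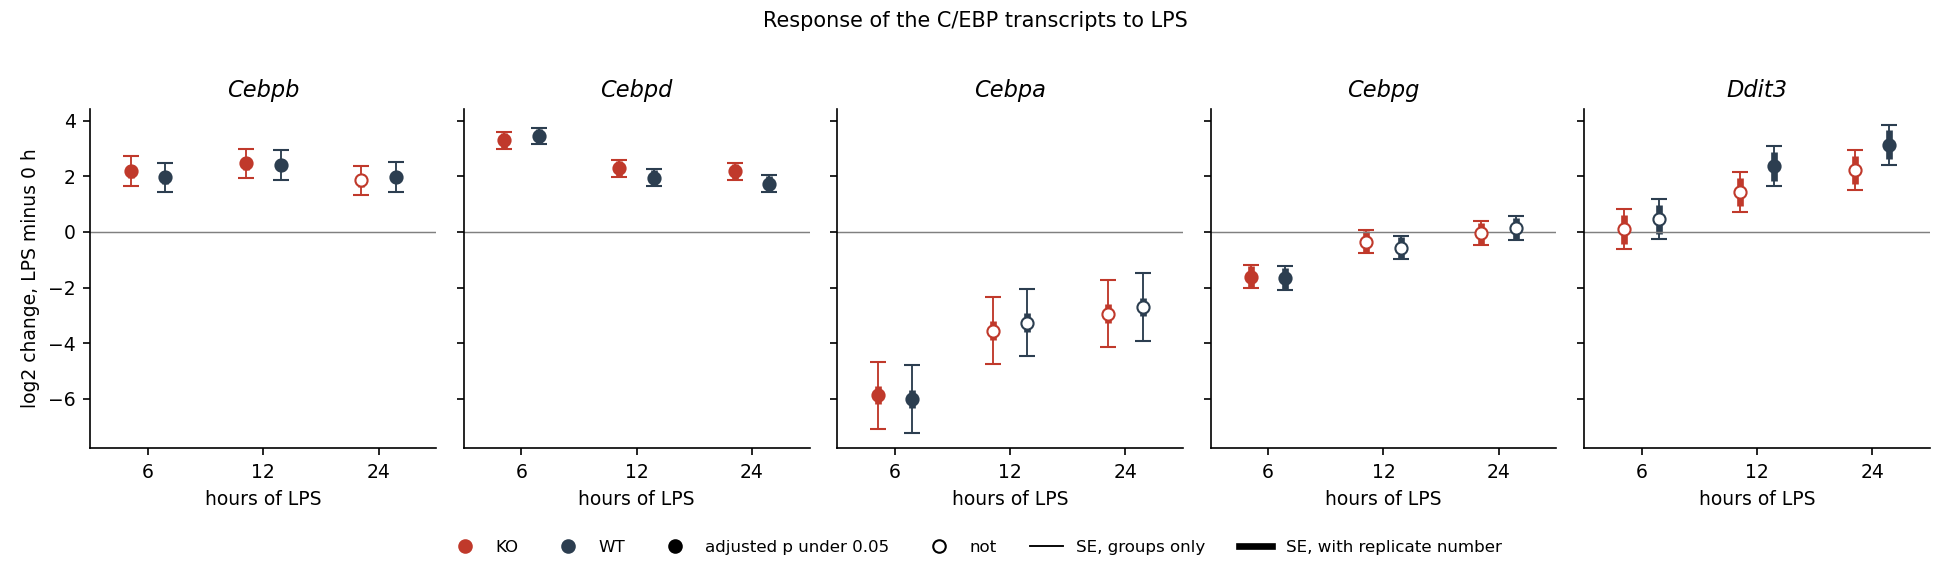
Log2 change against 0 h (vertical axis) for each C/EBP gene at 6, 12 and 24 h of LPS, KO left of WT. Thin bars are standard errors of the fit on groups alone, thick bars those with the replicate number, and filled points passed at adjusted p under 0.05 without it. Cebpb and Cebpd lie above 0 at every time, Cebpa lies below 0 with its lowest point at 6 h, Cebpg returns to about 0 by 24 h, and Ddit3 climbs from 6 to 24 h.

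The group means of each gene were then put in order. Cebpb ran from KO at 12 h (6.40) through the other LPS groups, whose neighbours overlapped, down to WT at 6 h (5.71), then without overlap to KO at 0 h (3.93) and WT at 0 h (3.74). Cebpa had both 0 h groups on top (KO 3.04, WT 2.84), separated from the 24 h groups (KO 0.10, WT 0.15), the 12 h groups (KO -0.50, WT -0.41) and the 6 h groups (KO -2.84, WT -3.17), whose neighbours overlapped. For Cebpd, KO and WT overlapped at 6 h (6.90 and 7.02) and at 0 h (3.61 and 3.57). Between them KO at 12 h (5.90) and 24 h (5.79) stood without overlap above WT at 12 h (5.53) and WT at 24 h (5.31). Cebpg ran from WT at 24 h (1.34) over both 0 h groups and KO at 24 h (1.0) to the 12 h groups (KO 0.69, WT 0.63), which lay below KO at 24 h without overlap but within reach of the 0 h arrays, and then, below all of these, to the 6 h groups (KO -0.57, WT -0.46). Ddit3 had both 24 h groups on top (KO 3.56, WT 4.14), then the 12 h groups (KO 2.77, WT 3.37), then the 6 h groups (KO 1.43, WT 1.46) and the 0 h groups (KO 1.33, WT 1.0). The 6 h arrays spread so widely that KO replicate 2 (2.43) reached the lower KO array at 12 h (2.41) and both groups overlapped those at 0 h, while KO lay above WT at 0 h without overlap. With 2 arrays a group, such gaps often arise without any true difference. No KO against WT difference of these genes was called at any time.

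Among all genes, LPS was followed by calls at many others, and the family's counts are read against that share. At 6 h 4 of 5 C/EBP genes passed in KO cells, where 26.0% of all genes passed, and 4 of 5 in WT cells, where 25.4% passed. At 12 h 2 of 5 passed in KO cells (19.4% of all genes) and 3 of 5 in WT cells (19.3%). At 24 h 1 of 5 passed in KO cells (9.91%) and 3 of 5 in WT cells (11.0%), and for 24 h against 6 h 2 of 5 passed in KO cells (12.9%) and 3 of 5 in WT cells (10.5%).

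With the replicate number in the fit, 4 of 5 passed in KO cells at 6 h (43.7% of all genes), 3 of 5 at 12 h (38.4%), 4 of 5 at 24 h (24.1%) and 4 of 5 for 24 h against 6 h (32.1%). In WT cells 4 of 5 passed in each of these comparisons, against 45.6% of all genes at 6 h, 37.6% at 12 h, 27.4% at 24 h and 30.1% for 24 h against 6 h. The median change over all genes at 6 h was 0.01 in KO cells and 0.06 in WT cells.

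Genes with more than 1 probe gave a check of these values by a second sequence. The other Cebpb probe, in the zipper region and without the seed match, rose at 6, 12 and 24 h by 2.35, 2.35 and 2.03 in KO cells (adjusted p = 0.000636, 0.000915 and 0.00362) and by 2.06, 2.56 and 2.16 in WT cells (0.00142, 0.000562 and 0.00239). Its replicate 1 lay above replicate 2 in 4 of 8 groups, against 8 of 8 for the probe near the polyadenylation signal. The other Cebpa probe changed at 6 h by -5.27 in KO cells (adjusted p = 0.00233) and by -3.67 in WT cells (adjusted p = 0.0160), and was not well above background on 1 of 16 arrays, KO 6 h replicate 2, so that 1 of the 2 arrays of that group measured it. Between 6 and 24 h it differed by 2.46 in KO cells (adjusted p = 0.122, and 0.00711 with the replicate number). In WT cells it differed by 0.92 (0.623, and 0.222 with the replicate number), where the brightest probe had 3.31, so the later WT increase of Cebpa did not pass on this probe.

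The Cebpg probes parted at 24 h. A_52_P121675 (chr7:35832751-35832810) fell at 6 h by 1.97 in KO cells (adjusted p = 0.00797) and by 2.05 in WT cells (adjusted p = 0.00687), as the brightest probe did. A_51_P521216 (chr7:35831917-35831976) differed by -1.90 in KO cells (0.125, and 0.000728 with the replicate number) and by -1.95 in WT cells (0.115, and 0.000622). At 24 h in WT cells the brightest probe was 0.14 above 0 h, while A_52_P121675 was at -0.75 (0.355, and 0.154 with the replicate number) and A_51_P521216 at -1.14 (0.468, and 0.0210). In KO cells at 24 h they stood at -0.04, -0.41 and -0.57, and none passed. In WT cells at 24 h 1 of the 3 Cebpg probes was thus above its 0 h level and 2 were below it.

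**Figure D3:**
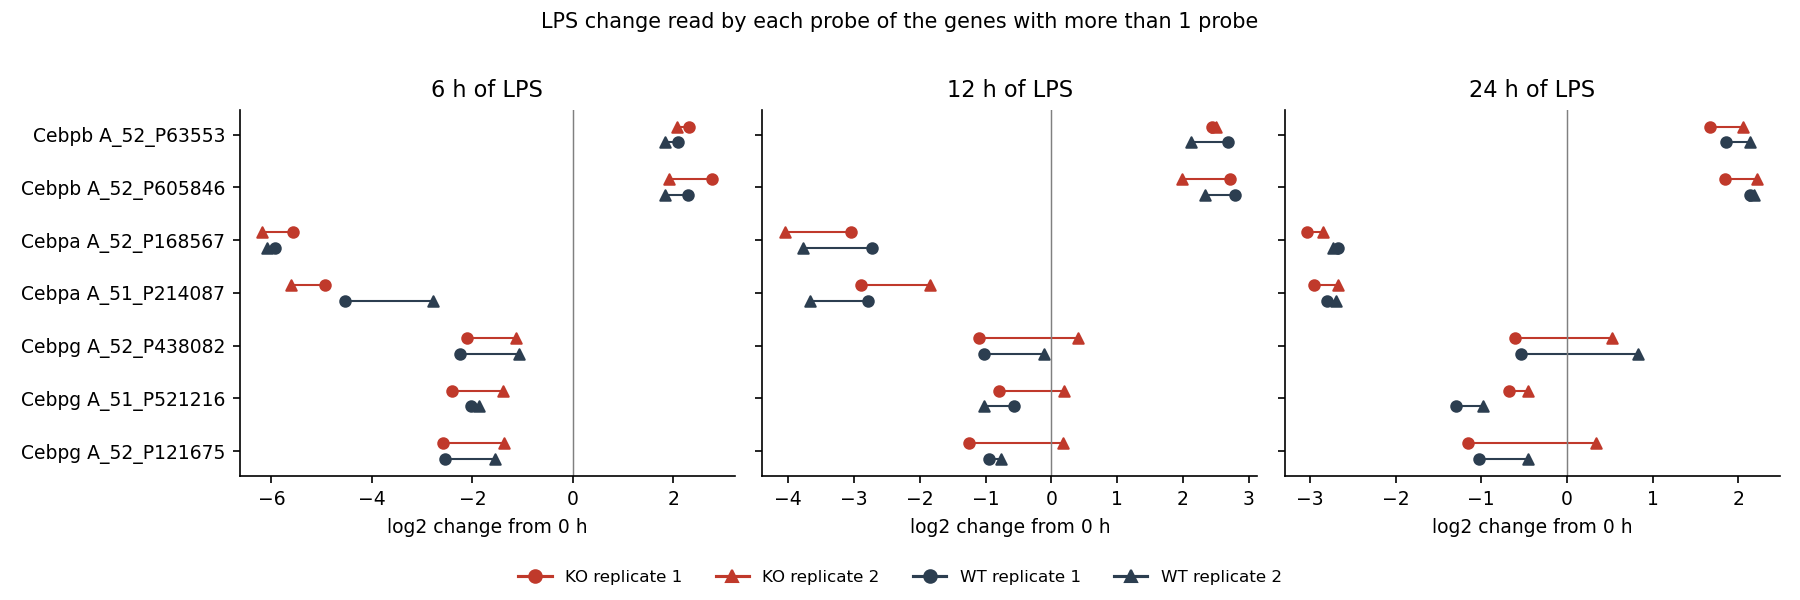
Log2 change against 0 h (horizontal axis) of each probe of Cebpb, Cebpa and Cebpg (rows) at 6, 12 and 24 h of LPS, KO above WT, with circles for replicate 1 and triangles for replicate 2. The Cebpb probes lie above 0 and the Cebpa probes below 0 in both replicates at every time, and the Cebpg probes spread apart at 24 h.

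The loss of miR-155 was followed by no called difference in the message of any C/EBP gene. The arrays read RNA, and C/EBP proteins were not measured. For Cebpb, the reported target, KO minus WT was 0.18 at 0 h, 0.41 at 6 h, 0.25 at 12 h and 0.06 at 24 h, on a standard error of 0.53 in the fit on groups alone. At 6 h, where it was largest, KO arrays read 6.67 and 5.57 and WT arrays 6.11 and 5.31, and the groups overlapped. KO lay above WT by 0.56 in replicate 1 and by 0.27 in replicate 2 (unadjusted p = 0.458, limma, and 0.109 with the replicate number).

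Averaged over the 4 times, Cebpb was 0.23 higher in KO cells (1.17-fold, 95% interval -0.37 to 0.82, and -0.04 to 0.49 with the replicate number). KO was higher in 7 of 8 pairs of the same time and replicate, and the adjusted p with the replicate number was 0.958 (unadjusted 0.0828). The second Cebpb probe gave an average of 0.31 ± 0.17, also higher in 7 of 8 pairs (unadjusted p = 0.0911, adjusted p = 1). It reads the same RNA on the same arrays, so it is no independent observation. For the other genes KO was higher in 6 of 8 pairs for Cebpd, 5 for Cebpa, 3 for Ddit3 and 2 for Cebpg. The interval with the replicate number thus holds both 0 and a higher Cebpb level in KO cells by up to 0.49.

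Cebpd gave no called difference between the genotypes, though its KO arrays lay above its WT arrays at 12 and 24 h. At 24 h it was 5.94 and 5.63 in KO cells and 5.28 and 5.34 in WT cells, and at 12 h 5.91 and 5.89 in KO cells and 5.47 and 5.60 in WT cells. The groups did not overlap at either time, and the difference was 0.48 at 24 h (unadjusted p = 0.141, limma) and 0.36 at 12 h (unadjusted p = 0.252, limma), neither past the threshold. Groups of 2 arrays often part without any true difference, and the share of all genes that did so was not counted. At 0 and 6 h it was 0.04 and -0.12, and the average was 0.19 (95% interval -0.14 to 0.52). For Ddit3 KO minus WT was 0.33 at 0 h, where the groups did not overlap, -0.03 at 6 h, -0.60 at 12 h and -0.58 at 24 h, with an average of -0.22 (95% interval -1.03 to 0.59). Cebpa averaged 0.10 (-1.25 to 1.45, and -0.27 to 0.46 with the replicate number) and Cebpg -0.14 (-0.61 to 0.32), and single times ran between -0.09 and 0.33 for Cebpa and between -0.34 (at 24 h, without overlap) and 0.06 for Cebpg.

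**Figure D4:**
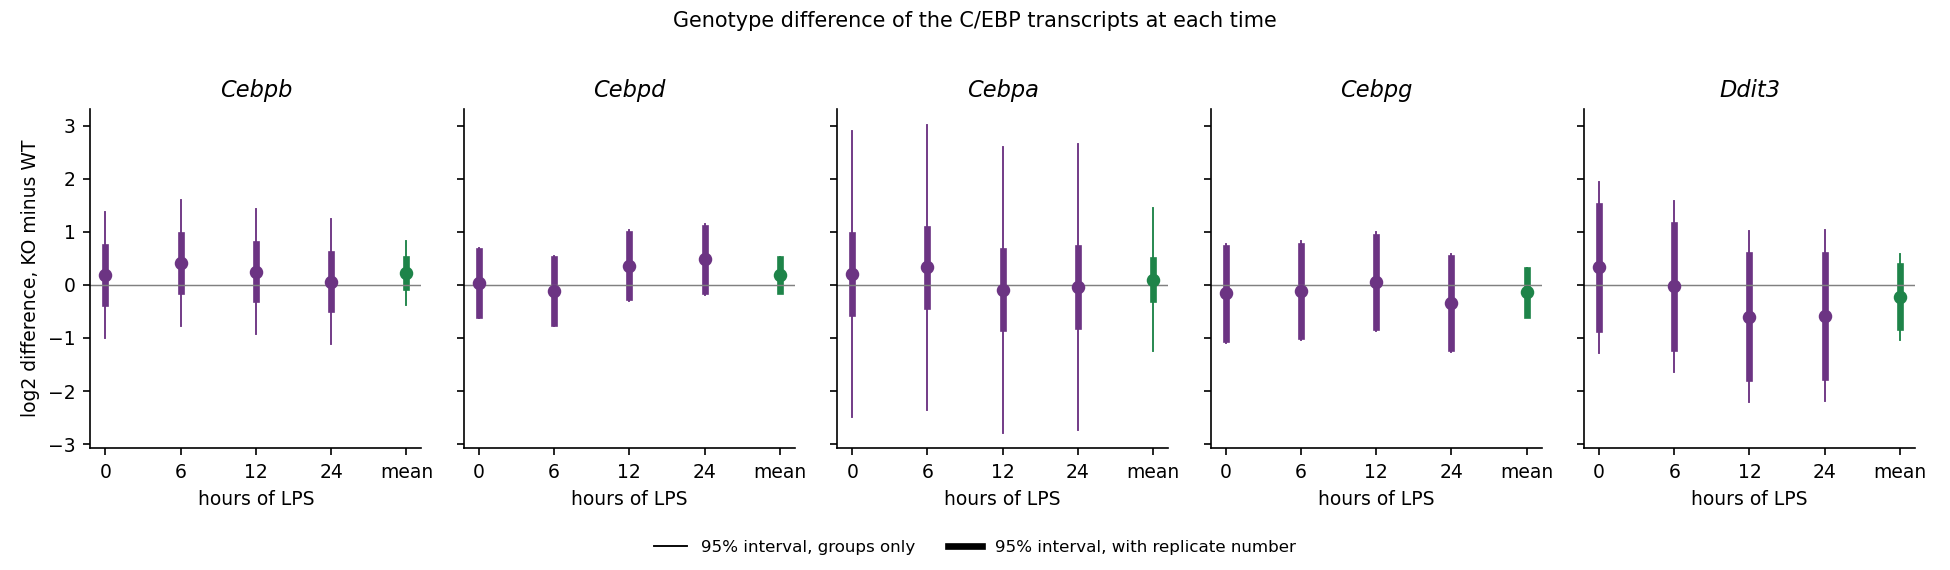
Log2 difference KO minus WT (vertical axis) for each C/EBP gene at 0, 6, 12 and 24 h of LPS and averaged over these times, with 95% intervals from the fit on groups alone (thin) and with the replicate number (thick). The averages lie between -0.22 for Ddit3 and 0.23 for Cebpb, and every interval shown holds 0.

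Few other genes passed between the genotypes either. In the fit on groups alone 0 of 5 C/EBP genes passed at any time, against 0.0% of all genes at 0, 6 and 24 h, 0.0113% at 12 h and 0.017% for the average. Adding the replicate number gave 0 of 5 again, against 0.00566% of all genes at 0 h, 0.0113% at 6 h, 0.017% at 12 h, 0.0% at 24 h and 0.0227% for the average. At an unadjusted p under 0.05 (limma), 43 of all 17658 genes passed at 0 h, 147 at 6 h, 167 at 12 h, 213 at 24 h and 240 for the average. With the replicate number these counts were 171, 599, 651, 991 and 969. Where no gene differs, a share of 0.05 of all genes is expected under this threshold. The counts by themselves therefore show no genotype difference. The fit on groups alone counts the shared deviation of same-numbered arrays as spread. Its low counts therefore do not show that the genotypes are alike.

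The size of the LPS response was compared directly as KO response minus WT response. For Cebpb the difference was 0.23 at 6 h, 0.06 at 12 h and -0.13 at 24 h, and for Cebpd -0.15, 0.33 and 0.44. Ddit3 had the largest gap, -0.36, -0.93 and -0.91, with a 95% interval at 12 h of -3.21 to 1.35 (-2.56 to 0.71 with the replicate number). Cebpg gave 0.05, 0.22 and -0.18, and Cebpa 0.13, -0.29 and -0.24. None of the 5 genes passed at any time or in the joint test of all 3 times, where 0.0% of all genes passed in the fit on groups alone. With the replicate number 0.0% of all genes passed at 6 h, 0.00566% at 12 h and 0.0% at 24 h, and 0.0113% in the joint test.

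Genes around the family were described by lists drawn up from textbook knowledge with results of these data known, and their counts are set beside those of all genes. Of 20 inflammatory genes known as targets of C/EBPβ and C/EBPδ, 15 rose and 0 fell at 6 h in KO cells (median change 5.44), and 15 rose and 0 fell in WT cells (median 4.93). At 24 h 10 rose in KO cells (median 4.58) and 10 in WT cells (median 4.25). In the fit with the replicate number 19 rose at 6 h and 12 at 24 h in each genotype. Over all genes 12.3% rose and 13.8% fell at 6 h in KO cells, and 12.6% rose and 12.8% fell in WT cells. At 24 h 4.97% rose and 4.94% fell in KO cells, and 5.61% rose and 5.42% fell in WT cells. The shares with the replicate number were at 6 h 21.0% and 22.7% in KO cells and 23.6% and 22.0% in WT cells, and at 24 h 11.7% and 12.5% in KO cells and 13.3% and 14.1% in WT cells. Saa3, an acute-phase protein, rose at 6 h by 11.45 in KO cells and 11.16 in WT cells, Il1b, the inflammasome cytokine, by 9.33 and 8.89, and C3, the central complement component, by 7.77 and 7.98. Il6 and Il12b, which encode cytokines, and Nos2 were not well above background on any 0 h array. At 6 h Il6 was at least 14100-fold higher in KO cells (adjusted p = 4.38e-06) and at least 12700-fold higher in WT cells (adjusted p = 3.84e-06). Il12b was at least 4330-fold higher in KO cells and 3530-fold in WT cells, and Nos2 at least 643-fold and 744-fold. With the 4 such genes of the list at their bounds the 6 h medians were the same, and the 24 h median in KO cells was 4.33.

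The list of myeloid targets of C/EBPα and C/EBPε held genes that moved both ways: of 16 tested genes 3 rose and 1 fell at 6 h in KO cells (3 and 2 with the replicate number, median 0.16), and 3 rose and 1 fell in WT cells (median 0.46). Those that rose include Lcn2, an iron-sequestering protein (6.35 in KO cells and 6.04 in WT cells), and Cd14, the LPS co-receptor (2.32 and 2.33), which are also on the inflammatory list. Gfi1, which is not on that list, was not well above background on any 0 h array. At 6 h it was at least 191-fold higher in KO cells (adjusted p = 8.24e-06) and at least 253-fold higher in WT cells (adjusted p = 7.38e-06). Il6ra, a receptor chain for IL-6, fell by 2.35 in KO cells and by 1.99 in WT cells. Of all genes 12.3% rose and 13.8% fell at 6 h in KO cells (21.0% and 22.7% with the replicate number). In WT cells 12.6% of all genes rose and 12.8% fell (23.6% and 22.0%).

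Among 19 bZIP partners, 5 rose and 2 fell at 6 h in KO cells (6 and 5 with the replicate number, median 0.19), and 5 rose and 3 fell in WT cells (8 and 3, median 0.35). Beside them, 12.3% of all genes rose and 13.8% fell in KO cells (21.0% and 22.7% with the replicate number). In WT cells 12.6% of all genes rose and 12.8% fell (23.6% and 22.0%). Batf, a partner of Jun proteins, rose by 5.43 in KO cells and 5.41 in WT cells, and Batf2, a relative of Batf, rose by 5.35 and 5.89. Both remained above 0 h at 24 h, Batf by 5.20 in KO cells and 5.27 in WT cells. Nfil3, a repressor of the same superfamily, rose by 1.41 in KO cells and 1.94 in WT cells, while Dbp and Tef, activators with a circadian rhythm, fell, with changes of -4.33 and -3.21 in KO cells and -4.16 and -3.42 in WT cells. Cebpz, a CCAAT-binding protein that carries the family's name, was the other C/EBP gene tested. It differed at 6 h by -0.93 in KO cells (adjusted p = 0.0511, and 0.00312 with the replicate number) and fell by 1.17 in WT cells (adjusted p = 0.0191).

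Of 18 tested regulators of C/EBP proteins, 4 rose and 1 fell at 6 h in KO cells (4 and 2 with the replicate number, median 0.30). In WT cells 3 rose and 1 fell (3 and 2, median 0.10). The shares of all genes that rose and fell were 12.3% and 13.8% in KO cells (21.0% and 22.7% with the replicate number). In WT cells they were 12.6% and 12.8% (23.6% and 22.0%). Stat3, which carries IL-6 family signals to the nucleus, rose by 2.93 in KO cells and 3.11 in WT cells. Spi1, the myeloid factor PU.1, rose by 2.38 in KO cells and 2.09 in WT cells, and Cop1, a ubiquitin ligase that degrades C/EBPα, rose by 2.25 in KO cells and 2.54 in WT cells. Pparg, a nuclear receptor that works with C/EBP proteins in fat cells, fell by 2.42 in KO cells and by 2.33 in WT cells.

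Of 23 tested genes of the CHOP and ATF4 stress response, 4 rose and 3 fell at 6 h in KO cells (8 and 6 with the replicate number, median 0.41), and 4 rose and 4 fell in WT cells (7 and 6, median 0.27). At 24 h 5 rose and 0 fell in KO cells (9 and 1 with the replicate number, median 0.46), and 4 rose and 0 fell in WT cells (8 and 1, median 0.56). Of all genes 4.97% rose in KO cells and 5.61% in WT cells at that time, and 11.7% and 13.3% with the replicate number. At 6 h 12.3% of all genes rose and 13.8% fell in KO cells (21.0% and 22.7% with the replicate number). In WT cells 12.6% of all genes rose and 12.8% fell at 6 h (23.6% and 22.0%). Trib3, a pseudokinase known as a CHOP target, was lower than at 0 h at 6 h, with changes of -1.93 in KO cells and -1.96 in WT cells, and at 24 h stood above 0 h by 3.12 in KO cells (adjusted p = 0.00211) and by 3.26 in WT cells (adjusted p = 0.00150). Chac1, which breaks down glutathione, was higher at 24 h by 3.60 in KO cells and 3.51 in WT cells, and Aars, an alanyl-tRNA synthetase, by 1.89 and 1.91. Sesn2 and Ddit4, stress genes that restrain mTORC1, fell at 6 h, with changes of -2.24 and -2.83 in KO cells and -2.32 and -2.92 in WT cells. Nupr1, a stress-induced chromatin protein, rose already at 6 h, by 5.31 in KO cells and 5.29 in WT cells. No gene of any of these lists passed between KO and WT averaged over the times (0 of each), and the median KO minus WT of the inflammatory list was 0.13.

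**Figure D5:**
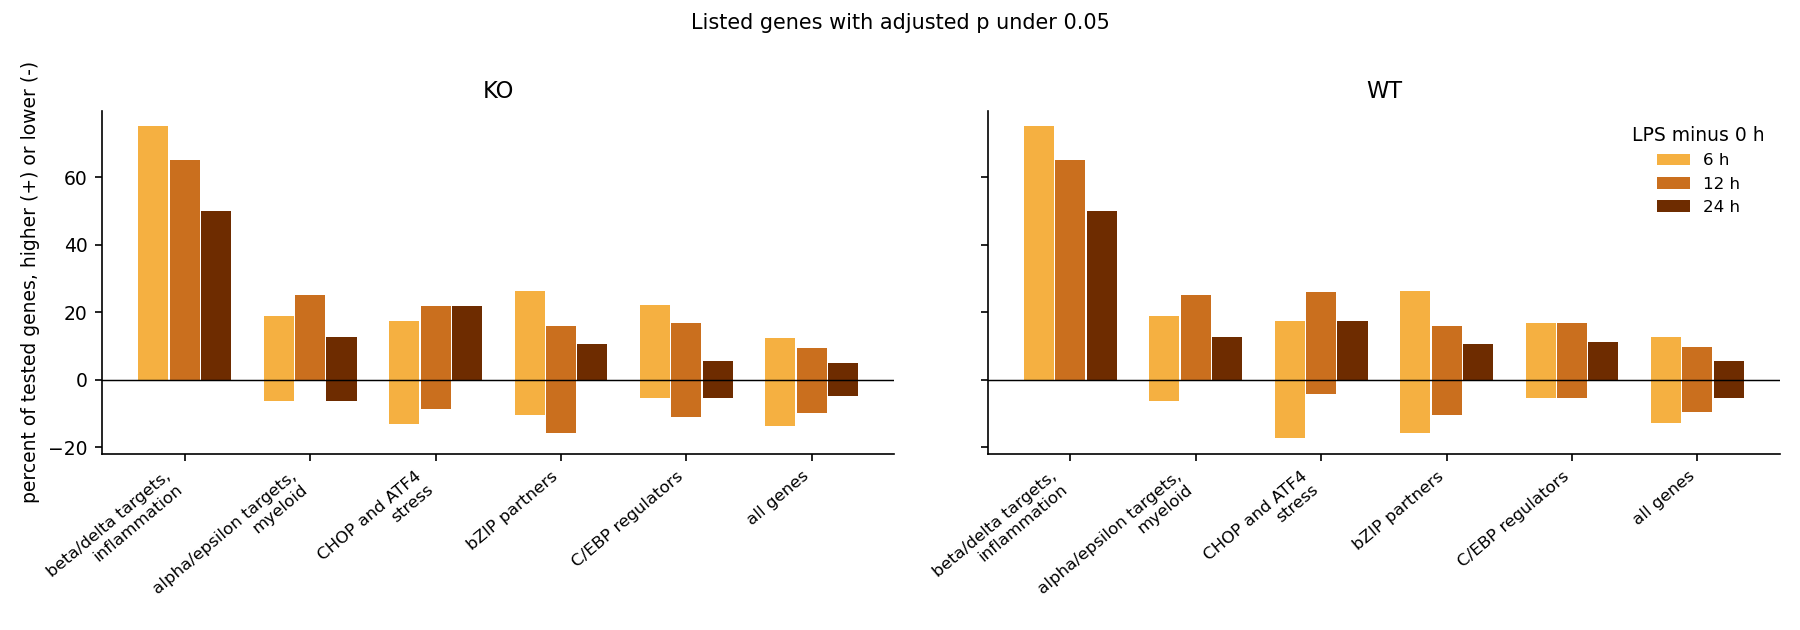
Percent of the tested genes of each list that rose or fell (vertical axis, falls below 0) at 6, 12 and 24 h of LPS, with all genes beside them, KO panel left of the WT panel. The inflammatory list has 15 of 20 genes up at 6 h in both panels, and at 6 h the other lists have genes on both sides.

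Genes whose course was most like that of each member were found by Pearson correlation over the 16 arrays, after removing each gene's mean per replicate, among 13505 genes. Cebpb was closest to Tmem185b (r = 0.989), Ctu1 (0.983) and Nab1 (0.983), and Cebpd to Adgrg6 (0.989), Il20rb (0.979) and Tagap1 (0.977). Cebpa was closest to Slc26a11, Ccdc85b and Lpar6 (each 0.986). Cebpg was closest to Sdccag8 (0.973), Zfp825 (0.967) and Gins3 (0.961), and Ddit3 to Sdhb (0.959), Pstpip1 (0.958) and Ccl25 (0.958). Correlations over 0.95 were shared by 233 genes for Cebpb, 157 for Cebpa, 62 for Cebpd, 9 for Ddit3 and 6 for Cebpg. The arrays share their groups and sessions, and the values are a description.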

How the data were processed

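Per the file headers, the single-colour (Cy3) arrays were read with Agilent Feature Extraction 10.5.1.1, and the deposited scanner files hold the background-subtracted, detrended intensity of each spot. The deposited series table holds log2 values with an upper quartile of 8.78 to 8.79 on each array; scale and direction matched the scanner values (r = 1.0).

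Control and outlier spots (61 to 108 per array) were removed, the spots of a probe were averaged as log2 intensity, and each array was scaled by its 75th percentile. No spot was saturated (0). Of 41077 probes, 26854 were well above background on both arrays of a group. Each of 17658 genes was represented by its brightest probe on average. Names came from the reference gene table by accession (26869 probes), symbol (5559) or synonym (891), otherwise from the array file (7758). Coordinates were taken from the array file (mm9), and exon or UTR annotation of that build was not used here.

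The 8 group means were estimated by limma 3.58.1 under R 4.3.3 (lmFit, eBayes, 8 residual and 2.29 prior degrees of freedom), with Benjamini-Hochberg adjustment and a threshold of 0.05. The code was tested on simulated data with independent noise on each array, for KO minus WT at 6 h alone. Those data did not hold the shared deviation described next, so the test says nothing about its effect. Same-numbered arrays deviated together in all 28 pairs of groups (r 0.40 to 0.84, median 0.58) and lay in the same scan session per the file headers, so the replicate number pairs the samples. With that term 7 residual degrees of freedom remained. A gene not well above background on every array of a group has only a bound, computed from the lowest well-above-background signal of each array. Alternatives were other background corrections, scalings, filters, probe summaries, the deposited table, the slide as a block, and each array left out.

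The text names all 5 genes in every comparison and 3 genes of most similar course per member. From each list it names a few called genes each way, mostly those with the largest change whose arrays did not overlap. The members and lists were chosen with earlier results of these data known.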

Additional observations from a re-analysis of the deposited data

How the results depend on the processing

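The count of C/EBP genes called against 0 h depended on the fit. In KO cells it was 1 at 24 h and 2 for 24 h against 6 h, and with the replicate number as a block, which the pairing of the samples supports, it was 4 and 4. The slide as a block also gave 4 and 4, and so did the block with the mean over probes or with the repaired normexp correction. The block with quantile scaling gave 4 at 24 h, and the block with median scaling gave 4 at 12 h, 4 at 24 h and 4 for 24 h against 6 h. Without the block, median scaling gave 2 at 24 h and 0 for 24 h against 6 h, no filter on dim probes gave 0 for 24 h against 6 h, the filter on all arrays and the repaired normexp each gave 2 at 24 h, and the mean over probes gave 2 and 1. The cause was not tested. Normexp on mean and local background gave 1 at 6 h and 0 at 12 h, at 24 h and for 24 h against 6 h in KO and in WT cells. On 3 arrays a few spots with local background far above their own signal raised the corrected lower quartile to 241 to 3280, against 59.9 to 82.0 on the other 13, and with those backgrounds replaced it was 59.9 to 64.6.

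With each array left out in turn, with or without the block, 2 to 4 genes passed at 6 h, 1 to 4 at 12 h, 1 to 4 at 24 h and 0 to 4 for 24 h against 6 h, in KO and in WT cells. Leave-one-out with the block kept all calls of Cebpa and Cebpb. No direction reversed among called values, and no KO against WT value or difference in response passed under any of 46 settings (lowest adjusted p 0.6).

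Over all genes, 4598 passed at 6 h in KO cells and 4489 in WT cells, against 7719 and 8047 with the block, 8163 and 8428 with the slide and 425 and 512 with normexp. For 24 h against 6 h it was 2275 in KO and 1848 in WT cells, against 5673 and 5312 with the block. Median scaling moved the median of all genes to 0.17 in KO cells and 0.14 in WT cells at 6 h, and to 0.26 and 0.33 at 24 h. Arrays give no counts, and their number limits the precision.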
